A study of Mus musculus with 22 samples.

Results

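Fibroblast growth factor (FGF) signalling was described through 10 genes: the ligands Fgf8, Fgf10 and Fgf18, the receptors Fgfr1, Fgfr2 and Fgfr3, and the feedback targets Spry1, Spry2, Dusp6 and Etv4. They were chosen by name, and every non-control probe whose gene name or RefSeq accession belonged to one of them was taken. All 10 genes were found, on 19 of the 41174 probes of the array, and all 19 probes were tested. The samples were forelimbs of 129 strain mouse embryos at embryonic day 13.5, from 13 Chsy-1 knockout samples and 9 wild-type samples. Chsy1 encodes a chondroitin sulfate synthase, an enzyme that builds the chondroitin chains of proteoglycans. The series' design calls the samples biological replicates. Whether a sample was 1 embryo or a pool, and how the allele was built, is not given in the sources used here. Forelimb RNA carried Cy5 and was hybridised together with Cy3-labelled Universal mouse reference RNA, common to all arrays, so a value is the log2 ratio of forelimb over reference. Such a ratio compares samples for 1 probe, and was not compared between genes.

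FGF ligands are secreted proteins that bind receptor tyrosine kinases together with heparan sulfate, and the activated receptors signal through the RAS and ERK kinases. In the limb bud, Fgf8 is made by the apical ectodermal ridge, the thickened epithelium at the tip, and Fgf10 by the underlying mesenchyme. The pathway is known for restraining itself: ERK activity switches on Sprouty proteins and the phosphatase Dusp6, which dampen the same signal, while Etv4 is a transcription factor of the ETS family whose level follows FGF signalling in limb mesenchyme. At the later stage of cartilage formation, Fgf18 and Fgfr3 are known as regulators of chondrocyte growth.

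Between 27214 and 30599 of the 43379 non-control spots per array were well above background in Cy5, the forelimb channel, in which the median intensity of an array was 102.8 to 178.9 over a background of 54 to 57. No such spot was saturated. Chsy1 was 69.1 times lower in the knockout samples (log2 difference -6.11, 95% interval -7.02 to -5.21, limma adjusted p = 1.27e-08). Its log2 ratio was -5.12 at the lowest, -4.73 at the median and 0.15 at the highest in the 13 knockout arrays, against 1.28, 1.79 and 2.02 in the 9 wild-type arrays. The groups did not overlap, but the highest knockout array, knockout 1, stood between the other knockouts and the wild types, so it is called the library labelled knockout 1 below. The forelimb factor Tbx5 was above background on all 22 arrays and averaged 2.41 ± 0.25 in knockout and 2.20 ± 0.56 in wild-type samples (log2 ratio, SD, n = 13 and 9). The hindlimb factor Pitx1 was also above background throughout and averaged 5.45 ± 0.15 in knockout and 5.64 ± 0.27 in wild-type samples. So was Tbx4, the other hindlimb factor listed, which averaged 0.71 ± 0.20 in knockout and 0.61 ± 0.27 in wild-type samples. The samples are called forelimbs by their label, and what these 2 hindlimb factors mean for that label was not tested.

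The question asked of the FGF genes was whether their transcripts differ between Chsy1 knockout and wild-type forelimbs. None of the 10 passed the test (limma, adjusted p under 0.05 over all 18639 genes and unnamed probes tested), and none had an unadjusted p under 0.05. Over all genes 0.0215% were called, 4 genes that were all lower in the knockout, and 5.33% had an unadjusted p under 0.05. The median difference of the FGF genes was -0.034 on the log2 scale, with 4 positive and 6 negative, beside a median of -0.0072 over all genes, of which 8691 were positive and 9948 negative. The intervals were wide enough to hold moderate changes: the widest, that of Fgf8, ran from -0.34 to 0.37. They come from a fit with genotype only, while array position was uneven between the genotypes. With position as a block the intervals were wider, -0.86 to 0.45 for Fgf8 and -0.70 to 0.67 for Fgfr1. In these whole-limb RNA samples, fewer cells of a type and less RNA per cell cannot be told apart.

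**Figure D1:**
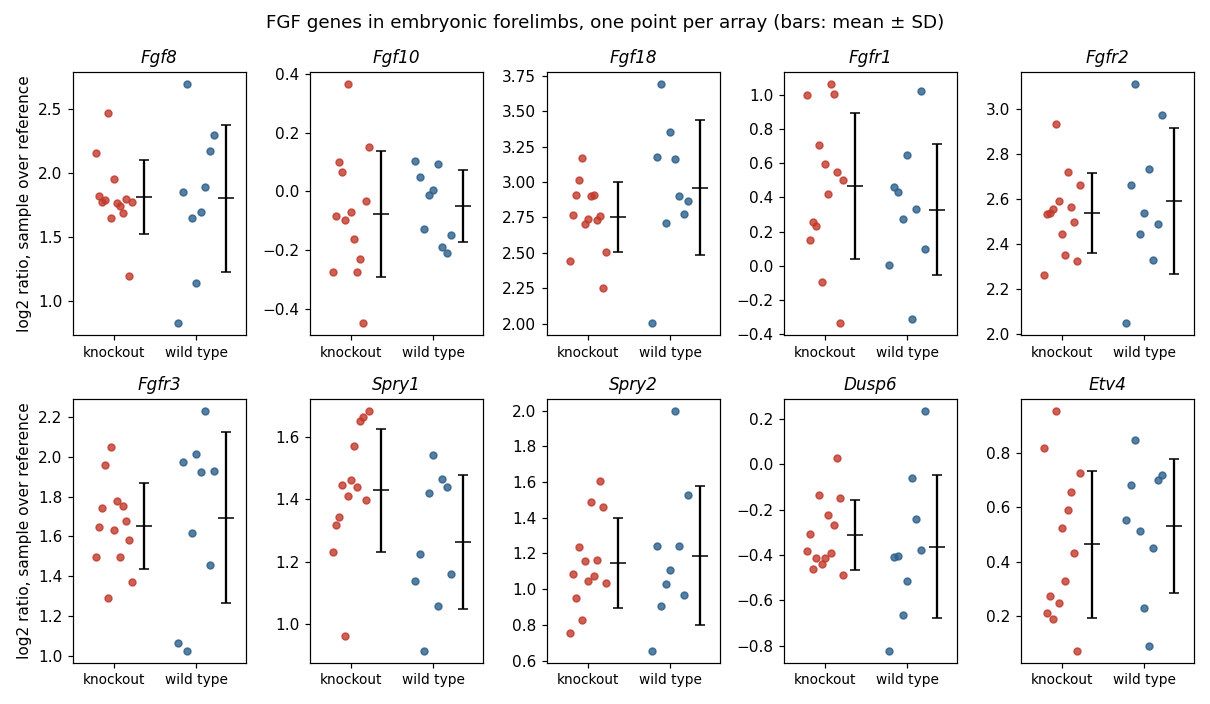
Log2 ratio of forelimb over reference RNA on the vertical axis for each of the 10 FGF genes, with 13 knockout arrays in red on the left and 9 wild-type arrays in blue on the right; each point is an array and the bars are mean ± SD. The groups overlap for every gene, and the wild-type spread is the wider one for 7 of the 10.

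Among the ligands, Fgf8, the signal of the apical ectodermal ridge, showed nearly equal group means. Its probe lies at chr19:45790185-45790244 on the minus strand (mm8, the build of the array files). Its log2 ratio was 1.20 at the lowest, 1.775 at the median and 2.47 at the highest in the knockout arrays, against 0.83, 1.85 and 2.69 in the wild-type arrays. All 13 knockout values lay inside the wild-type range, and the lowest values were those of knockout 12 and wild-type 1. The difference was 0.011 (95% interval -0.34 to 0.37, limma adjusted p = 0.995). A second probe for Fgf8, at chr19:45794922-45794981, was dim, above background in all 13 knockout arrays but in only 7 of the 9 wild-type arrays, and gave 0.022 (95% interval -0.14 to 0.19).

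Fgf10, the mesenchymal ligand that maintains the ridge through Fgfr2, was measured at chr13:119910431-119910490 on the plus strand. It had log2 ratios of -0.45, -0.082 and 0.37 (lowest, median, highest) in the knockout arrays and -0.21, -0.014 and 0.10 in the wild-type arrays. It was the member with the most knockout values outside the wild-type range, with only 7 of 13 inside it, on both sides. Knockout 11 was the lowest and knockout 6 the highest. The difference was -0.027 (95% interval -0.19 to 0.13, limma adjusted p = 0.982).

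Fgf18, a ligand expressed in perichondrium and around forming bones, showed the difference farthest below 0 of the members. On its probe at chr11:33017441-33017500, minus strand, the log2 ratios were 2.25, 2.76 and 3.17 in the knockout arrays and 2.00, 2.90 and 3.69 in the wild-type arrays. Wild-type 1 was below every knockout and wild-type 3 above every knockout, so the knockout values again lay wholly within the wild-type range. Its difference was -0.21 (95% interval -0.51 to 0.094, unadjusted limma p = 0.169, adjusted p = 0.931), and the exact permutation p over 497420 assignments was 0.201, two-sided. Without wild-type 1 it was -0.33 (95% interval -0.57 to -0.079, unadjusted limma p = 0.0118, adjusted p = 0.842). Without wild-type 3 it was -0.11 (95% interval -0.39 to 0.17). With array weights in the fit it was -0.28 (95% interval -0.50 to -0.066, unadjusted limma p = 0.0127, adjusted p = 0.576). None of these was called.

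For the receptors, as for the other members, the SD between arrays of 1 genotype was larger than the difference of the group means. Fgfr1, the receptor of the limb mesenchyme, was measured with 4 probes on chromosome 8, and the brightest, at chr8:27039136-27039195 on the plus strand, stood for the gene. Its log2 ratios were -0.34, 0.50 and 1.06 in the knockout arrays and -0.31, 0.33 and 1.02 in the wild-type arrays, so the 2 ranges nearly coincided. The difference was 0.14 (95% interval -0.21 to 0.48, limma adjusted p = 0.954). The other 3 probes gave 0.062 to 0.13, all positive and none called.

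Fgfr2, whose epithelial isoform receives Fgf10, was represented by its probe at chr7:129954346-129954405, minus strand. The log2 ratios were 2.26, 2.54 and 2.93 in the knockout arrays and 2.05, 2.54 and 3.11 in the wild-type arrays. The medians were equal to the second decimal, and all 13 knockout values lay within the wild-type range. The difference was -0.055 (95% interval -0.27 to 0.16, limma adjusted p = 0.977). Both other Fgfr2 probes had differences of the opposite sign, 0.091 and 0.090, with intervals that also held 0.

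Fgfr3, the receptor known for slowing chondrocyte proliferation, was represented by its probe at chr5:34053130-34053189, plus strand. It had log2 ratios of 1.29, 1.65 and 2.05 in the knockout arrays and 1.03, 1.93 and 2.23 in the wild-type arrays. Only 2 of the 13 knockouts exceeded the wild-type median, yet the group means were close because 2 wild-type arrays lay at the bottom of the wild-type range, below every knockout. The means were 1.65 ± 0.21 in knockout and 1.69 ± 0.43 in wild-type samples (SD, n = 13 and 9), a difference of -0.042 (95% interval -0.31 to 0.23, limma adjusted p = 0.985).

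Among the feedback targets, Spry1, an inhibitor of receptor tyrosine kinase signalling, came closest to a difference. Its probe lies at chr3:37835821-37835880, plus strand. The log2 ratios were 0.96, 1.44 and 1.68 in the knockout arrays, against 0.92, 1.225 and 1.54 in the wild-type arrays. Of the 13 knockouts, 12 exceeded the wild-type median, the exception being knockout 5, but 9 of the 13 still lay within the wild-type range. The difference of 0.17 (95% interval -0.012 to 0.34) had an unadjusted limma p of 0.0661 and an adjusted p of 0.918. The exact permutation p was 0.0746, two-sided. Spry1 was higher in the knockout on 4 of the 6 slides. Array position was uneven between the genotypes: position 1 held 6 wild types, position 2 held 3 knockouts and 3 wild types, and positions 3 and 4 held 6 and 4 knockouts. Only position 2, whose 3 knockouts include the library labelled knockout 1, compares the genotypes. There the Spry1 difference was -0.057, the same estimate as with position as a block. With median centring in place of loess it was 0.33 (95% interval 0.10 to 0.55, unadjusted limma p = 0.00594, adjusted p = 0.265), still not called. Low p-values were commoner over all genes with that centring. There Dusp6 had an unadjusted limma p of 0.125 and an adjusted p of 0.319, while Fgf18 as reported had 0.169 and 0.931. The median difference over all genes was also higher there, 0.055 against -0.0072 with loess. The share of 5.33% under 0.05 belongs to the loess fit, so it is no background for 0.00594.

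Spry2, a Sprouty family member found in limb mesenchyme near the ridge, was represented by a bright expressed-sequence-tag probe at chr14:104777767-104777826, minus strand. Its log2 ratios were 0.76, 1.085 and 1.61 in the knockout arrays and 0.66, 1.11 and 2.00 in the wild-type arrays. All 13 knockouts lay within the wild-type range. The difference was -0.042 (95% interval -0.31 to 0.22, limma adjusted p = 0.985). A dimmer probe annotated with the Spry2 transcript, at chr14:104778283-104778342, gave 0.041 (95% interval -0.16 to 0.24).

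Dusp6, a cytoplasmic phosphatase that removes the activating phosphates from ERK, was measured at chr10:98697039-98697098, plus strand. It had log2 ratios of -0.49, -0.385 and 0.026 in the knockout arrays and -0.82, -0.41 and 0.23 in the wild-type arrays. Its knockout values spanned less than the wild-type values and lay wholly inside them. The difference was 0.052 (95% interval -0.15 to 0.25, limma adjusted p = 0.977), and it was -0.26 within position 2. Etv4, at chr11:101586219-101586278 on the minus strand, had log2 ratios of 0.072, 0.43 and 0.96 in the knockout arrays and 0.089, 0.55 and 0.85 in the wild-type arrays. Its difference was -0.068 (95% interval -0.29 to 0.16, limma adjusted p = 0.972), with 11 of 13 knockouts within the wild-type range.

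**Figure D2:**
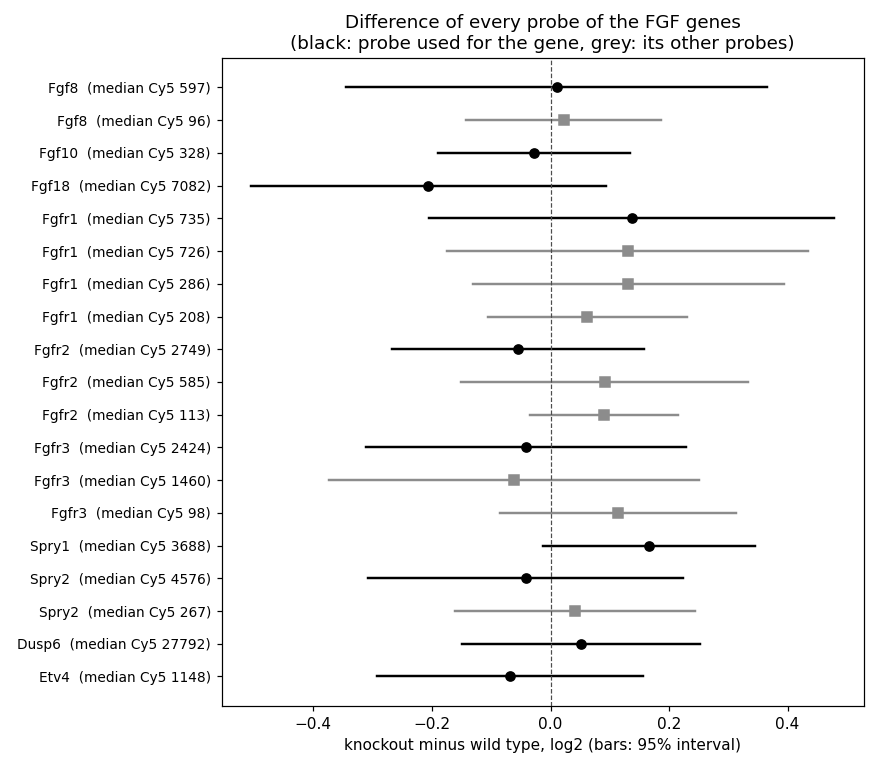
Knockout minus wild type on the log2 scale (horizontal axis) for each of the 19 probes, with 95% intervals; black circles are the probes that stand for the genes and grey squares the other probes, each with its median Cy5 intensity. Every interval holds 0, and the Fgfr2, Fgfr3 and Spry2 probes fall on both sides of 0.

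Repeated spots give the error of measurement within an array. Probes for Fgf8, Fgf10, Fgfr1 and Fgfr2 were spotted 10 times on each array. The SD between those spots had a median over the arrays of 0.098 for Fgf8, 0.053 for Fgf10, 0.036 for Fgfr1 and 0.083 for Fgfr2. The SD between arrays within a genotype was 0.42 for the same Fgf8 probe, 0.18 for Fgf10, 0.36 for Fgfr1 and 0.29 for Fgfr2. The spread between spots was thus well below the spread between arrays, in which differences between samples and between hybridisations cannot be told apart. For Fgfr1 and Fgfr2 the probes spotted 10 times were not those that stand for the genes, which had 1 spot each. The wild-type SD exceeded the knockout SD for 7 of the 10 FGF genes, beside 76.0% of 18620 genes. Leaving out wild-type 1 gave 7 of 10 and 65.1%.

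Different probes of 1 gene did not always follow each other over the 22 arrays. After the genotype means were removed, the Fgfr1 probes correlated with each other at r = 0.68 to 0.99, and the 2 bright Fgfr3 probes at r = 0.99 (Spearman's rho 0.98). The dim Fgfr3 probe at chr5:34052602-34052661 had r = -0.19 and -0.22 with those 2. The Fgfr2 probe used for the gene had r = 0.34 and 0.030 with its other probes, the second of them dim, and neither passed the threshold. Those 2 other Fgfr2 probes followed each other, with r = 0.70 and rho = 0.71 (adjusted permutation p = 5.6e-05). Both Spry2 probes ran in opposite directions, with r = -0.40 and rho = -0.39 (permutation p = 0.0690, adjusted p = 0.0966 over 14 probe pairs). A statement about Fgfr2, Fgfr3 or Spry2 across arrays thus depends on the probe.

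Whether ligands, receptors and feedback targets vary together was examined over the 22 arrays on deviations from the genotype means. Of 45 gene pairs, 6 passed for both Pearson's r and Spearman's rho (permutation within genotype, 100000 resamples, adjusted p under 0.05 over the 45 pairs). Of these, 4 were positive and 2 negative. The share of other gene pairs that would pass both was not computed, so the count of 6 has no background beside it. Etv4 followed Fgf8 (r = 0.62, rho = 0.60, adjusted permutation p = 0.0137 and 0.0452) and Fgfr1 (r = 0.67, rho = 0.64), and ran against Fgfr3 (r = -0.54, rho = -0.58). Fgf10 ran against Fgfr1 (r = -0.59, rho = -0.60). Fgf18 followed Fgfr2 (r = 0.74, rho = 0.62), and Spry2 followed Dusp6 (r = 0.71, rho = 0.59). The feedback targets did not form 1 block: Dusp6 and Etv4 had r = -0.0088, and Spry2 and Etv4 had r = -0.54, past the threshold for r but not for rho (adjusted permutation p = 0.0496 and 0.0566).

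**Figure D3:**
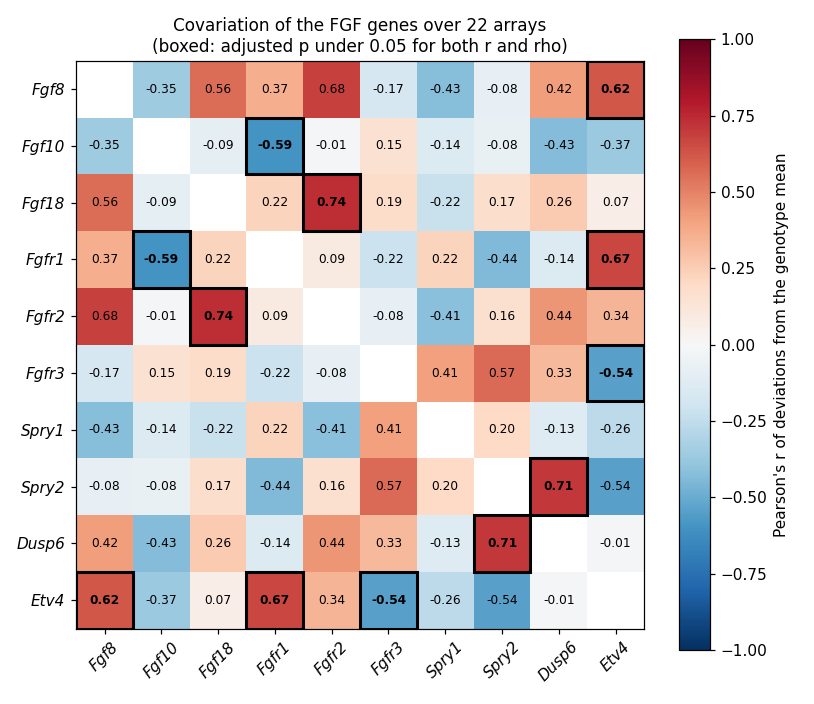
Pearson's r between the deviations of each pair of FGF genes from their genotype means over 22 arrays, red for positive and blue for negative, with boxes around pairs past the threshold for r and rho. The 6 boxed pairs run from -0.59 for Fgf10 and Fgfr1 to 0.74 for Fgf18 and Fgfr2.

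The share of all genes with correlations of this size differed between pairs. With Etv4, 10.2% of the 18619 other genes had an r at least as high as that of Fgf8, 7.76% one at least as high as that of Fgfr1, and 13.2% one at least as low as that of Fgfr3. With Fgfr1, 9.40% were as low as Fgf10, and with Fgf10, 2.53% were as low as Fgfr1. With Dusp6, 2.14% were as high as Spry2. Fgf18 and Fgfr2 had the smallest shares, 0.833% as high with Fgfr2 and 1.36% with Fgf18.

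The signs held better than the calls. Without the 2 arrays farthest from the median of the first gene, r was 0.73 for Fgf8 with Etv4, 0.62 for Fgfr1 with Etv4, -0.56 for Fgfr3 with Etv4, -0.61 for Fgf10 with Fgfr1 and 0.64 for Spry2 with Dusp6. None of the 6 pairs then passed for both r and rho over the 45 pairs, nor did any without wild-type 1. Without that array r was 0.75 for Fgf8 with Etv4, 0.68 for Fgfr1 with Etv4, -0.60 for Fgfr3 with Etv4, -0.58 for Fgf10 with Fgfr1, 0.61 for Fgf18 with Fgfr2 and 0.65 for Spry2 with Dusp6. For the 3 pairs with Etv4 it was thus farther from 0 than over all arrays, and the calls were lost on rho. For Fgf18 with Fgfr2 it was 0.46 without wild-type 1 and wild-type 3, so that relation rests in good part on those arrays. With slide removed 3 of the 6 passed, and with position removed all 6 did. By probe, Fgf8 with Etv4 had r = 0.62 and 0.51, and Fgf10 with Fgfr1 had -0.35 to -0.59 over 4 probe pairs. Fgfr1 with Etv4 had 0.34 to 0.67 over 4 probe pairs. Fgf18 with Fgfr2 was lower with the other Fgfr2 probes, at 0.56 (rho = 0.39) and 0.35 (rho = 0.36). The relation between Fgfr3 and Etv4 was 0.50 with the dim Fgfr3 probe, and that between Spry2 and Dusp6 was -0.21 with the other Spry2 probe, both of the opposite sign.

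**Figure D4:**
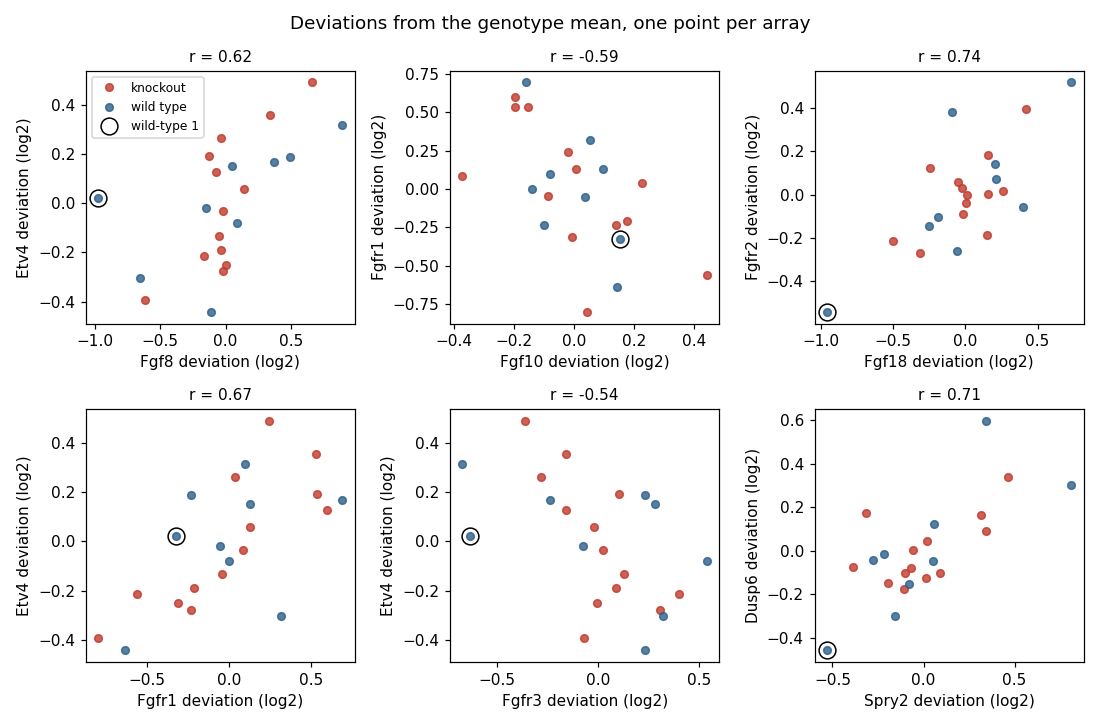
Deviations from the genotype mean on the log2 scale for the 6 pairs past the threshold, 1 point per array, knockout in red and wild type in blue, with wild-type 1 circled. Wild-type 1 lies at the low corner for Fgf18 with Fgfr2 and for Spry2 with Dusp6, and apart from the trend for Fgf8 with Etv4.

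The promoters of Dusp6 and Spry2 are shown because these 2 feedback genes had one of the highest correlations among the members, on the probes used for the genes. That correlation was picked from these same data, and it was -0.21 with the other Spry2 probe. Both genes are known to respond to ERK, whose ETS factors bind DNA at a GGAA core. The windows are the 250 bases before each start in RefSeq's GRCm38.p6 table, chr10:99262981-99263230 on the plus strand for Dusp6 and chr14:105896820-105897069 on the minus strand for Spry2. Capitals mark GGAA and, where the core is on the other strand, TTCC.
Dusp6: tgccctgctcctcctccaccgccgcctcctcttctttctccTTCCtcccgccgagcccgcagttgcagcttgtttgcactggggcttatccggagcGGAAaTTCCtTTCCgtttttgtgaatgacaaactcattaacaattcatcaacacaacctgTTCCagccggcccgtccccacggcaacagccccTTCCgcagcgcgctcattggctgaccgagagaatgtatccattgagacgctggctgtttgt
Spry2: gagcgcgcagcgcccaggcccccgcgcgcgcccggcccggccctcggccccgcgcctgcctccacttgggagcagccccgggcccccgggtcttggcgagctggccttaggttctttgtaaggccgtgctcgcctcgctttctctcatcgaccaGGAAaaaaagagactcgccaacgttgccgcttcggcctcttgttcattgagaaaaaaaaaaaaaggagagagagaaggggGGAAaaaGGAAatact
Dusp6 had 6 such cores and Spry2 had 3, beside a median of 3 over 32536 promoter windows of the same length, of which 93.4% held at least 1. As many as 6 were found in 8.70% of all windows, and 3 or more in 54.7%. The longer motif CCGGAA, on either strand, was in none of the 8 windows available for 7 of the members (Dusp6, Fgf10, Fgf18, Fgfr2, Fgfr3, Spry1 and Spry2), and in 12.1% of all windows. These matches describe the letters of the windows and are not binding sites.

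Outside the members, the genes whose deviations most resembled each member were taken from 16105 named genes, over the same 22 arrays. Fgf18 was most like Hs3st3b1, a heparan sulfate 3-O-sulfotransferase (r = 0.91, rho = 0.81), and Efnb1, an ephrin (r = 0.90, rho = 0.78). Fgf10 was most like Cdc42, a small GTPase (r = 0.81, rho = 0.79), and Kitl, the ligand of the KIT receptor (r = 0.80, rho = 0.82). Fgf8 had Car14, a carbonic anhydrase, at r = 0.90 (rho = 0.75) and Fbxo22 at r = 0.88, but the rho of Fbxo22 was only 0.61. Fgfr1 had Fblim1 and Tuba3a, both at r = 0.97, Fgfr2 had Zdhhc14 at 0.91 and Smarca1 at 0.90, and Fgfr3 had Kctd4 at 0.90 and Pdgfd at 0.87. Among feedback targets, Spry1 was nearest to Acot1 (0.88) and Rabggtb (0.86), Spry2 to Fbxo30 and Vamp4 (both 0.94), Dusp6 to Zfp687 (0.95) and Ptprs (0.90), and Etv4 to Wdr24 (0.94) and Atg2a (0.92). These are the highest of many values, given as descriptions.

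Other genes of the pathway were read from fixed lists, in which no gene passed the test in either direction. Of the 15 other secreted ligands, 7 were bright enough to test, with 1 positive and 6 negative and a median difference of -0.087, beside -0.0072 over all genes. Fgf7, a mesenchymal ligand of Fgfr2, averaged -3.02 in knockout and -2.77 in wild-type samples (log2 ratio), a difference of -0.25 (95% interval -0.50 to -0.011, limma adjusted p = 0.918). Fgf21, an endocrine ligand, had -0.27 (95% interval -0.54 to -0.0038), also not called. Fgf6, a ligand known in skeletal muscle, had -0.087. Probes for Fgf1, Fgf3, Fgf15, Fgf16, Fgf17, Fgf20 and Fgf22 were too dim to test, and Fgf4, another ridge ligand, was not analysed here.

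Of the 9 other receptors and cofactors, 8 were tested, 4 positive and 4 negative, with a median of 0.011. Fgfbp1, a secreted protein that carries FGFs away from the matrix, had -0.32 (95% interval -0.60 to -0.039, limma adjusted p = 0.918), and Flrt3, a membrane protein that binds FGF receptors, had 0.19 (95% interval -0.043 to 0.42). The third of the list by p, Klb, the co-receptor of endocrine FGFs, had -0.037. It was dim, above background in only 7 of the 13 knockout and 2 of the 9 wild-type arrays. All 16 genes of signal transduction were tested, 6 positive and 10 negative, with a median of -0.018. Among them, Frs2, the adaptor that docks on activated FGF receptors, had 0.22 (95% interval -0.019 to 0.47) and Hras had -0.14, neither called.

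Of the 11 other feedback inhibitors, 9 were tested, 7 positive and 2 negative, with a median of 0.030 and differences of -0.089 for Dusp4 to 0.067 for Il17rd. By p the first were Spred3 (0.058), Spred1 (0.056) and Dusp4, none called. Spred3 was dim, above background in only 7 of the 13 knockout and 3 of the 9 wild-type arrays. Spry4 was too dim to test. The 7 other transcription factors known as ERK targets all had negative differences, with a median of -0.22 beside -0.0072 over all genes. Myc averaged -2.77 ± 0.12 in knockout and -2.54 ± 0.21 in wild-type samples (log2 ratio, SD, n = 13 and 9), a difference of -0.23 (95% interval -0.38 to -0.082, unadjusted limma p = 0.00374, adjusted p = 0.910). Egr1 had -0.23 and Fos -0.33, also not called, while the ETS factors of the list, Etv5 and Etv1, had -0.014 and -0.089. Of these 7 genes, 2 had an unadjusted p under 0.05, as did 2 of the 7 other secreted ligands tested, beside 5.33% of all genes. The mean log2 ratio of the 7 factors was -2.69, -2.60 and -2.41 (lowest, median, highest) in the knockout arrays and -2.69, -2.36 and -2.07 in the wild-type arrays. The highest wild-type array was wild-type 1 and the highest knockout array was knockout 12, and their part in the differences was not tested.

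Factors of the apical ectodermal ridge, the source of Fgf8, were positive for 6 of the 7 tested, with a median of 0.097 and no call. The mean log2 ratio of these 7 was 1.22, 1.59 and 1.91 (lowest, median, highest) in the knockout arrays and 0.82, 1.57 and 1.70 in the wild-type arrays. The group medians were close, and wild-type 1 was the lowest array. Its part in the positive differences was not tested. Msx2 had 0.30 (95% interval -0.10 to 0.70, limma adjusted p = 0.924), Sp8 had 0.18 (95% interval -0.036 to 0.39) and Dlx2 had 0.14. Surface ectoderm markers were negative for 5 of 5, with a median of -0.14, none called. Their mean log2 ratio was 1.76 to 2.31 in the knockout arrays and 1.83 to 2.56 in the wild-type arrays.

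The mean of the FGF genes was low in the same arrays as that of several other lists. The mean log2 ratio over the 10 genes was 0.98 in knockout 12, the lowest of the knockouts, whose median was 1.19 and highest 1.31. In wild types it was 0.76 in wild-type 1, against a median of 1.24 and a highest value of 1.37. Both arrays were also the lowest of their genotype for limb mesenchyme markers (1.35 in knockout 12, 1.14 in wild-type 1), cartilage markers (2.85 and 2.54) and endothelial markers (1.50 and 1.22). The same held for the hindlimb, skeletal muscle, erythroid, ridge, and Schwann cell and neuron lists. It held only for knockout 12 with macrophage markers and only for wild-type 1 with surface ectoderm markers. These arrays also had the lowest mean correlation with the other arrays, 0.912 for wild-type 1 and 0.937 for knockout 12. Their low values were thus not particular to the FGF genes, nor shared by every list or member. The lowest arrays were wild-type 6 and knockout 4 for signal transduction, and wild-type 4 and knockout 4 for other feedback inhibitors. Fgf10 was at 0.10 in wild-type 1, the highest of the wild types. Spry2 was at 1.46 in knockout 12, above the knockout median of 1.085. Liver and trunk markers went the other way in wild-type 1, at 0.58, the highest of the wild types, whose median was -0.72. The part of these differences in the FGF values was not tested. Without wild-type 1 the Fgf8 difference was -0.11, that of Fgfr2 was -0.12 and that of Dusp6 was -0.0058, and no FGF gene was called. Leaving out both wild-type 1 and the library labelled knockout 1, a choice made after seeing the data, also gave no call among the members.

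**Figure D5:**
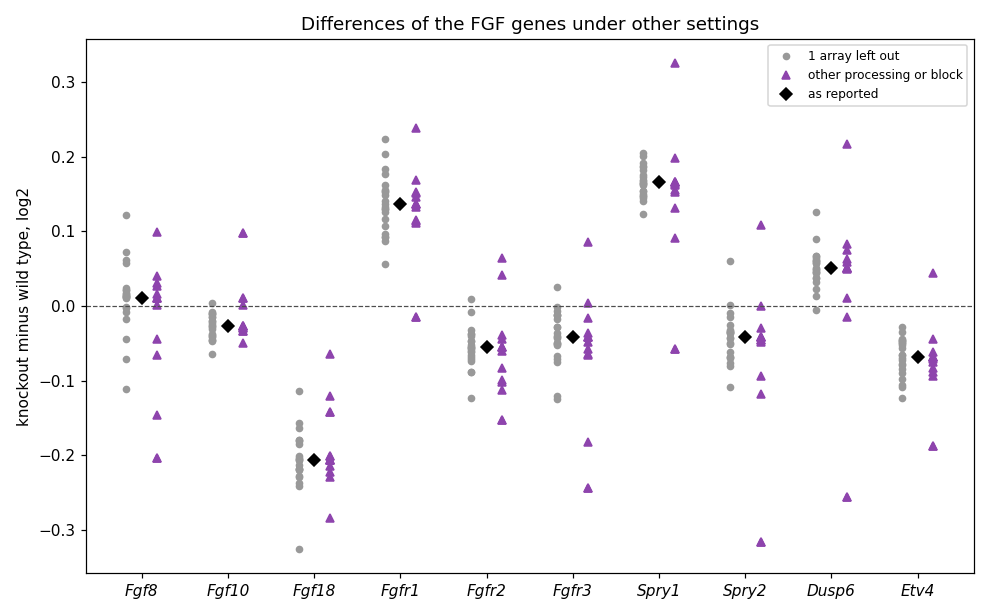
Knockout minus wild type on the log2 scale (vertical axis) for each FGF gene as reported (black diamonds), with 1 array left out (grey circles) and under other processing or blocks (purple triangles). Fgf18 is negative throughout and no value lies beyond 0.33 in size; the other 9 genes cross 0 in at least 1 setting.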

How the data were processed

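Feature Extraction from Agilent, version 9.5 per the submitters' processing notes and 9.5.3.1 per the file headers, measured the spots. The deposited spot and background intensities are raw values, per the file headers. The deposited ratio of a spot is a log10 of processed Cy5 over Cy3, and the authors' value table equals it. The deposited flags (outlier, saturated, above background) take 0 or 1.

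From the intensities, normexp (offset 50) and loess within arrays gave log2 ratios. Control and outlier spots had weight 0, and the spots of a probe were averaged. The brightest probe stood for its gene, tested where Cy5 exceeded background on 9 or more arrays: 27782 probes passed, for 18639 genes and unnamed probes, 16120 of them named. Names came from a RefSeq table of GRCm38.p6 where a probe matched it. The model was fitted to all 22 arrays in limma 3.58.1 (R 4.3.3) with genotype only, and the Benjamini-Hochberg threshold over every tested gene was 0.05. Fit and correlation test were tested on simulated data. Correlations used numpy 2.4.6 in Python 3.11.15.

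Genes named by rule were the 10 members, Chsy1, the 3 genes of smallest p in each other pathway list, and the 2 named genes most like each member. Of these, 1 is not reported here. Etv1, Etv5, Il17rd, Fgf11, Tbx5, Pitx1 and Tbx4 were added after their values were seen. The members and lists were chosen with earlier results of these data known. Samples of the 2 genotypes with the same replicate number correlated at -0.31 to 0.49 over 9 numbers, so the numbers were not taken as pairs. Precision is limited by the number of arrays.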

Additional observations from a re-analysis of the deposited data

How the results depend on the processing

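No FGF gene was called in any of the settings tried: other background correction, normalisation, probe choice, filter, blocks, weights, the deposited value table, within position 2, or with any 1 of the 22 arrays left out. The count over all genes was 4 as reported, 2 to 6 with 1 array left out, 1 with median centring, the deposited value table, slide as a block, position as a block or the replicate block, 0 within position 2, where the Chsy1 difference was -4.66 (limma adjusted p = 1.00), and 2 without wild-type 1 and knockout 1 together, a setting chosen after seeing the data. In that last setting Fgf8 was at -0.14 and Fgf10 at 0.0083. Signs of uncalled differences turned under several settings. Fgf8 was at -0.066 with no background correction, -0.044 from Cy5 alone and -0.15 in the deposited value table. Median centring, which moved the median of all genes to 0.055, gave 0.011 for Fgf10, 0.064 for Fgfr2, 0.086 for Fgfr3, 0.11 for Spry2 and 0.044 for Etv4, with 0.33 for Spry1, and Cy5 alone gave 0.011 for Fgf10. The mean of a gene's probes gave 0.042 for Fgfr2 and 0.0036 for Fgfr3. Position as a block and position 2 alone both gave -0.20 for Fgf8, 0.098 for Fgf10, -0.015 for Fgfr1, -0.057 for Spry1 and -0.26 for Dusp6. Of the 3 knockouts at position 2, the library labelled knockout 1 had a Chsy1 log2 ratio of 0.15, against -4.05 in knockout 2 and -4.60 in knockout 3. The part of that library in the position 2 values, including that of Chsy1, was not tested. The replicate block gave 0.0011 for Fgf10, and array weights gave -0.015 for Dusp6. With 1 array left out the differences ran from -0.11 to 0.12 for Fgf8, 0.057 (without wild-type 6) to 0.22 (without wild-type 8) for Fgfr1, -0.12 (without wild-type 6) to -0.028 (without wild-type 3) for Etv4, -0.33 to -0.11 for Fgf18, 0.12 to 0.21 for Spry1, -0.064 to 0.0037 for Fgf10, -0.12 to 0.0098 for Fgfr2, -0.13 to 0.026 for Fgfr3, -0.11 to 0.060 for Spry2 and -0.0058 to 0.13 for Dusp6. The cause of these turns was not tested. Of 45 correlated pairs, 6 passed as reported, 3 with slide removed, 8 with position removed, and 0 without the 2 farthest arrays or without wild-type 1. By other probes, chosen after seeing the data, Fgfr3 with Etv4 was at 0.50 and Spry2 with Dusp6 at -0.21. The dimmest probe of each of Fgf8, Fgfr2 and Fgfr3 lies near background, which limits what it shows.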

Other observations

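The 4 intracellular FGF homologous factors, relatives of the ligands that are not secreted and act on sodium channels, were all tested and none was called. Their median difference was 0.097, with 0.25 for Fgf13, 0.23 for Fgf12, -0.035 for Fgf14 and -0.084 for Fgf11. Their mean log2 ratio was 0.89 to 1.80 in the knockout arrays and 0.57 to 1.75 in the wild-type arrays.

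Cell type markers were read as whole lists, and none of their genes was called. The median differences were 0.20 for 6 limb mesenchyme genes (4 positive), -0.10 for 5 cartilage genes (1 positive), -0.15 for 5 skeletal muscle genes (1 positive), -0.029 for 4 endothelial genes (0 positive), 0.086 for 3 macrophage genes (2 positive), 0.092 for 4 erythroid genes (3 positive), 0.13 for 4 Schwann cell and neuron genes (4 positive), -0.037 for 2 hindlimb genes (1 positive) and -0.057 for the 3 tested liver and trunk genes (1 positive).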
